A study of Mus musculus with 14 samples.

Results

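The methionine cycle and transsulfuration enzymes of the liver were followed through 9 genes: Mat1a, Gnmt, Pemt, Ahcy, Bhmt, Cbs, Cth, Cdo1 and Csad. They are 9 of the 22180 genes measured on the arrays. Each was represented by a probe set that the platform annotation assigns to that symbol alone, and where a gene had several such probe sets the brightest on average was taken. All 9 genes were found, and no filter on low values was applied. Ahcy had 2 probe sets and each of the other genes had 1.

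The study used Affymetrix whole-transcript arrays on 14 samples of total liver RNA from male C57Bl/6J mice. Each sample is treated as 1 mouse below, which the labels do not state array by array. All of the mice ate a high-fat diet (60% HFD), beginning at an age of 6 weeks and lasting 4 weeks before the groups were formed, and were then kept for another 4 weeks. The HFD_CANA group (n = 5) received 30 mg/kg canagliflozin, an inhibitor of the renal glucose transporter SGLT2, while staying on the diet. In the HFD_caloric_restriction group (n = 5) food was reduced by 15 to 30% so that body weight followed that of the drug group. The HFD group (n = 4) stayed on the diet alone and is called HFD control below. No group on a standard diet was analysed here, so all values describe livers of mice on the high-fat diet. The comparisons ask what the drug changes, what weight-matched restriction changes, and what separates the drug from restriction.

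The methionine cycle converts methionine to S-adenosylmethionine (SAM), the methyl donor of most methylation reactions, and the liver carries a large share of this flux. Methyl transfer leaves S-adenosylhomocysteine, which is split to homocysteine. Homocysteine is either methylated back to methionine or passed into transsulfuration, which makes cysteine, the precursor of glutathione and taurine.

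The arrays were alike in scale, with medians from 4.07 to 4.13 and upper quartiles from 5.78 to 5.82 on the log2 scale, and pairwise correlations from 0.971 to 0.985. Hepatocyte markers were bright on every array (Alb 13.91 to 14.09), and the mean of the 10 hepatocyte markers per array ran from 12.82 to 12.93 under canagliflozin, from 12.80 to 12.93 under restriction and from 12.83 to 12.87 in HFD controls. In bulk liver RNA, fewer cells of a type and less RNA per cell cannot be told apart. The number of arrays limits the precision: the 95% interval of a log2 difference had a median reach of 0.28 to either side over the 9 enzymes in both comparisons with HFD controls, and of 0.26 between the treated groups.

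No enzyme passed the threshold in any comparison. The test was limma's moderated test over all 22180 genes, with Benjamini-Hochberg adjustment and a threshold of 0.05. The smallest adjusted p among the 9 was 0.598 for canagliflozin against HFD controls, 0.999 for restriction against HFD controls and 0.683 for canagliflozin against restriction. The share of all genes past that threshold was 0.0% for canagliflozin against HFD controls, 0.0% for restriction against HFD controls and 0.00451% for canagliflozin against restriction, where the single gene was Rtkn.

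At an unadjusted p under 0.05, canagliflozin differed from HFD controls in 3 of the 9 enzymes, with Cth and Mat1a higher and Pemt lower, against 6.51% of all genes. Restriction differed from HFD controls in 0 of 9, against 3.93% of all genes. Canagliflozin differed from restriction in 2 of 9, with Cth higher and Pemt lower, against 6.05% of all genes. These comparisons share arrays, so Cth and Pemt appearing in both is not a repeated observation. In values that did not overlap between groups, the counts were 1 of 9 (Cth) against 1.95% of all genes, 0 of 9 against 1.4%, and 1 of 9 (Pemt) against 0.929%, in the same order of comparisons.

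Single arrays moved these counts, and the share of all genes moved as well. Without canagliflozin replicate 2, the count at an unadjusted p under 0.05 for canagliflozin against HFD controls was 1 of 9 (Cth), against 6.83% of all genes. Without HFD control replicate 3, the count for restriction against HFD controls was 1 of 9 (Csad), against 4.52% of all genes. Non-overlap is easier to reach with fewer arrays. Non-overlap between canagliflozin and HFD controls extended to Pemt without canagliflozin replicate 3 (2 of 9, against 4.32% of all genes) and to Cbs without HFD control replicate 3 (2 of 9, against 4.07%). Between restriction and HFD controls it held for Pemt without restriction replicate 3 (1 of 9, against 2.57%). Between canagliflozin and restriction it extended to Cth, with 2 of 9 against 2.36% of all genes without canagliflozin replicate 3 and against 1.61% without restriction replicate 4.

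**Figure D1:**
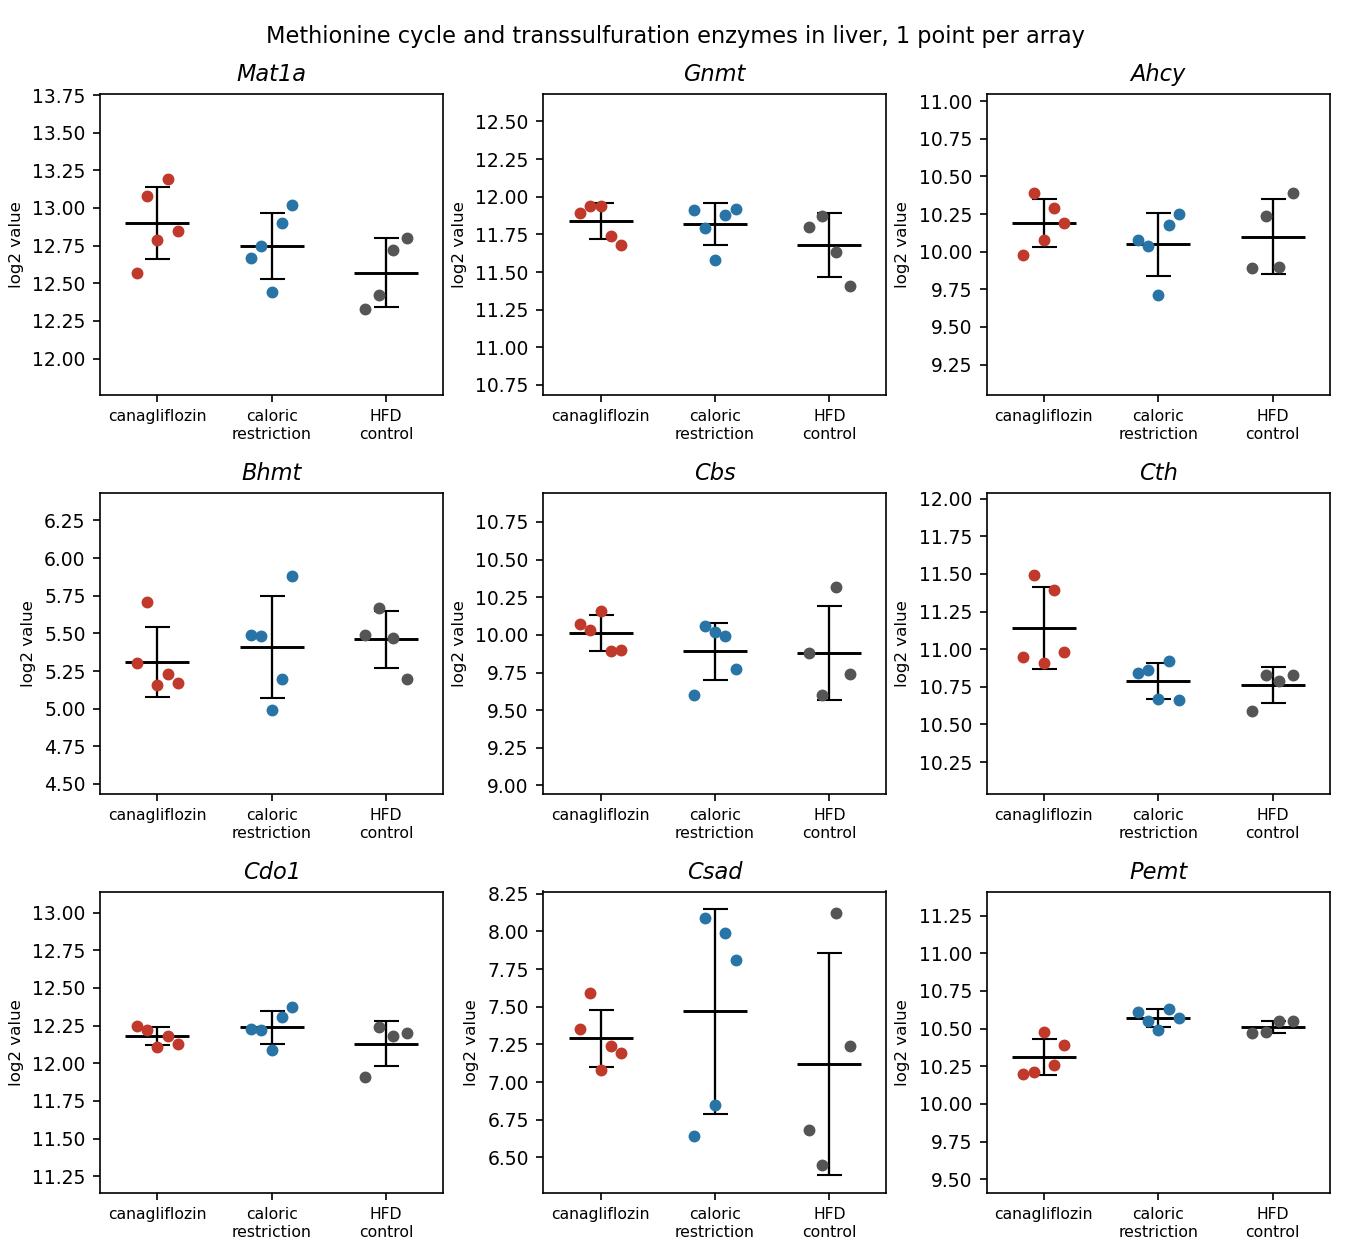
Log2 values of the 9 enzymes (vertical axes, each spanning 2 log2 units) in canagliflozin (n = 5), caloric restriction (n = 5) and HFD control livers (n = 4); points are arrays, horizontal lines group means and bars 1 SD. All 5 canagliflozin values of Cth lie above the HFD controls, all 5 of Pemt lie below restriction, and Csad spreads from 6.45 to 8.12.

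Mat1a encodes the liver form of methionine adenosyltransferase, which makes SAM. It measured 12.57, 13.08, 12.79, 13.19 and 12.85 under canagliflozin, 12.67, 12.75, 12.44, 12.90 and 13.02 under restriction, and 12.33, 12.42, 12.72 and 12.80 in HFD controls. The groups overlap, and 3 of 5 canagliflozin values lie above every control. The mean was 12.90 ± 0.24 under canagliflozin against 12.57 ± 0.23 in HFD controls, a log2 difference of 0.33 ± 0.14 (SE; 95% interval 0.03 to 0.63), or 1.25-fold, with adjusted p = 0.751 in limma. An exact 2-sided permutation of the 9 arrays gave p = 0.0952. The unadjusted p of limma was 0.034, and it exceeded 0.05 when any of 4 arrays was left out, namely HFD control replicate 1 (0.121), HFD control replicate 2 (0.0939), canagliflozin replicate 2 (0.0787) or canagliflozin replicate 4 (0.0955). Restriction differed from HFD controls by 0.19 ± 0.14, and canagliflozin from restriction by 0.14 ± 0.13.

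Gnmt and Pemt use SAM as a methyl donor. Gnmt, glycine N-methyltransferase, disposes of excess SAM and is abundant in hepatocytes. It measured 11.68 to 11.94 under canagliflozin, 11.58 to 11.92 under restriction and 11.41 to 11.87 in HFD controls. The ranges overlap in all 3 comparisons, with log2 differences of 0.16 ± 0.11 for canagliflozin against HFD controls, 0.14 ± 0.11 for restriction against HFD controls and 0.02 ± 0.10 for canagliflozin against restriction. The first of these had an interval of -0.07 to 0.39, and its adjusted p was 0.849 or more whichever array was left out.

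Pemt encodes phosphatidylethanolamine N-methyltransferase, which makes phosphatidylcholine in hepatocytes and consumes SAM in doing so. Because Pemt had the smallest p of the 9 enzymes, the windows listed for it in the RefSeq promoter table are shown, from 250 bases before to 50 bases after a transcript start, in GRCm38.p6 on the minus strand of chromosome 11. They are chr11:60040139-60040438, called the first start here, and chr11:60036956-60037255, the second start, which lies 3183 bases downstream of it. The names refer to these windows only. The RefSeq span of Pemt begins further upstream, at 60046561 on this strand, and neither window covers that end. Capitals mark AGAACA, the core letters of the glucocorticoid response element.
Pemt first start: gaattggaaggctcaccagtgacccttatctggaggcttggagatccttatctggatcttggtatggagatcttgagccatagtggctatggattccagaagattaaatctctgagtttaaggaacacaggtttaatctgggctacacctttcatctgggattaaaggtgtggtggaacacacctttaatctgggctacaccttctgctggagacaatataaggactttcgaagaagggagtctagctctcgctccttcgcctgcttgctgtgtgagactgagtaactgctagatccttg
Pemt second start: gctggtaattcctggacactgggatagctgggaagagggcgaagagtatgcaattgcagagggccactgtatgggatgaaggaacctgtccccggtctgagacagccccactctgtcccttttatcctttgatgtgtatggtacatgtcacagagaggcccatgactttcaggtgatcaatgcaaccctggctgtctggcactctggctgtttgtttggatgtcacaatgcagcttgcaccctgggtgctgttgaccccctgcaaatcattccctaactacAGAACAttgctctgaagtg

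In these windows 8 motifs were searched on both strands. The window of the first start held none of them and that of the second start held AGAACA once, with its first base 32 bases after the start. AGAACA occurs in 19.0% of the 32851 mouse promoter windows of this length. The arrays do not tell which start was used, at these windows or further upstream.

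The Pemt values were 10.20, 10.21, 10.48, 10.26 and 10.39 under canagliflozin, 10.61, 10.55, 10.49, 10.63 and 10.57 under restriction, and 10.47, 10.48, 10.55 and 10.55 in HFD controls. All 5 canagliflozin livers lie below all 5 restricted ones, by a margin of 0.004 between the nearest arrays, and 4 of 5 lie below every HFD control. The mean was 10.31 ± 0.12 under canagliflozin against 10.57 ± 0.06 under restriction, a log2 difference of -0.26 ± 0.08 (95% interval -0.43 to -0.09), or 1.2-fold lower, with adjusted p = 0.683 in limma. The exact 2-sided permutation test gave p = 0.00794, the smallest it can give with 5 arrays against 5, and 0.595% of all genes had a limma p as small as that of Pemt or smaller. Against HFD controls (10.51 ± 0.04) the difference was -0.20 ± 0.08 (-0.38 to -0.03), or 1.15-fold lower, with adjusted p = 0.731 in limma and an exact permutation p = 0.0397.

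In the comparison of Pemt between canagliflozin and HFD controls, the difference lay between -0.25 and -0.18 whichever array was left out. The unadjusted p of limma, 0.0266 over all arrays, was 0.0637 without canagliflozin replicate 1 and 0.0599 without canagliflozin replicate 2. It was 0.0573 and 0.0598 when HFD control replicate 3 or 4 was left out, and 0.0542 with the arrays centred on their medians. The difference between canagliflozin and restriction lay between -0.30 and -0.23 whichever of their 10 arrays was left out. Restriction differed from HFD controls by 0.06 ± 0.08. The mean order was thus restriction, HFD control and canagliflozin from high to low, and restriction and HFD control overlapped.

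Ahcy encodes S-adenosylhomocysteine hydrolase, which removes the product that inhibits methyltransferases. It measured 9.98 to 10.39 under canagliflozin, 9.71 to 10.25 under restriction and 9.89 to 10.39 in HFD controls, and all 3 ranges overlap. The log2 differences were 0.08 ± 0.13 for canagliflozin against HFD controls, -0.05 ± 0.13 for restriction against HFD controls and 0.13 ± 0.12 for canagliflozin against restriction. The dimmer Ahcy probe set gave means of 7.16 ± 0.17 under canagliflozin, 7.04 ± 0.09 under restriction and 6.98 ± 0.09 in HFD controls. Its differences were 0.18 ± 0.10 (adjusted p = 0.878 over all probe sets), 0.07 ± 0.10 and 0.11 ± 0.09, so the probe sets differ in sign for restriction against HFD controls. Over the 14 arrays the probe sets correlated at r = 0.51.

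Bhmt encodes betaine-homocysteine methyltransferase, which regenerates methionine from homocysteine in the liver. Its probe set was dim here, with values from 4.99 to 5.88, between the median and about the upper quartile of an array, and how far it stood above background was not analysed. Whether this probe set measures the Bhmt transcript well was not checked, so the values given for Bhmt describe the probe set. The mean was 5.31 ± 0.23 under canagliflozin, 5.41 ± 0.34 under restriction and 5.46 ± 0.19 in HFD controls. The differences were -0.14 ± 0.16, -0.05 ± 0.16 and, for canagliflozin against restriction, -0.10 ± 0.15, and the groups overlap. Canagliflozin replicate 2 stood apart in its group at 5.71.

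Cbs and Cth carry out the steps of transsulfuration. Cbs encodes cystathionine beta-synthase, which joins homocysteine and serine. It measured 9.89 to 10.16 under canagliflozin, 9.60 to 10.06 under restriction and 9.60 to 10.32 in HFD controls, which had the widest range, so the groups overlap. Canagliflozin exceeded HFD controls by 0.13 ± 0.13 in the mean. This difference was 0.27, with an unadjusted limma p below 0.05 (0.0376), without HFD control replicate 3, the brightest control, and 0.03 without HFD control replicate 2, the dimmest. Restriction differed from HFD controls by 0.01 ± 0.13 and canagliflozin from restriction by 0.12 ± 0.13.

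Cth encodes cystathionine gamma-lyase, which releases cysteine from cystathionine and also makes hydrogen sulfide. Its values were 10.95, 11.49, 10.91, 11.39 and 10.98 under canagliflozin, 10.84, 10.86, 10.67, 10.92 and 10.66 under restriction, and 10.59, 10.83, 10.79 and 10.83 in HFD controls. Every canagliflozin liver lies above every HFD control, with replicates 2 and 4 well above the other 3. The mean was 11.14 ± 0.27 under canagliflozin against 10.76 ± 0.12 in HFD controls, a log2 difference of 0.38 ± 0.12 (95% interval 0.12 to 0.64), or 1.3-fold, with adjusted p = 0.598 in limma and an exact 2-sided permutation p = 0.0238.

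In that comparison 1.06% of all genes had a limma p as small as that of Cth (0.00634 unadjusted) or smaller. The difference was 0.30 without canagliflozin replicate 2 and 0.44 without canagliflozin replicate 3, and the unadjusted limma p stayed between 0.00288 and 0.0267 whichever array was left out. Canagliflozin exceeded restriction by 0.35 ± 0.12 (0.11 to 0.60; adjusted p = 0.691 in limma, exact permutation p = 0.0159), with 4 of 5 values above every restricted liver. The exact p-values given here for Cth, Pemt and Mat1a are not adjusted, and 27 such differences of the 9 enzymes were computed. The overlap was 0.005, between canagliflozin replicate 3 and restriction replicate 4. Restriction and HFD controls differed by 0.03 ± 0.12 (-0.23 to 0.29).

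Cdo1 and Csad lead from cysteine to taurine, which the liver conjugates to bile acids. Cdo1 encodes cysteine dioxygenase and was among the steadiest of the 9, at 12.11 to 12.25 under canagliflozin, 12.09 to 12.37 under restriction and 11.91 to 12.24 in HFD controls. The differences were 0.05 ± 0.09, 0.11 ± 0.09 and, for canagliflozin against restriction, -0.07 ± 0.09, with overlap throughout.

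Csad encodes cysteine sulfinic acid decarboxylase, the next step towards taurine. It measured 7.35, 7.59, 7.08, 7.24 and 7.19 under canagliflozin, 6.64, 8.09, 6.85, 7.99 and 7.81 under restriction, and 6.68, 6.45, 8.12 and 7.24 in HFD controls. The canagliflozin values lie inside the range of the other groups, whose arrays reach both lower and higher. The SD was 0.19 under canagliflozin, 0.68 under restriction and 0.74 in HFD controls; a difference in spread was not tested. Canagliflozin differed from HFD controls by 0.17 ± 0.31 (-0.49 to 0.83), restriction from HFD controls by 0.35 ± 0.31 and canagliflozin from restriction by -0.18 ± 0.30. Single arrays moved these values widely. Canagliflozin against HFD controls ran from -0.06 without HFD control replicate 2 to 0.50 without HFD control replicate 3, and restriction against HFD controls from 0.13 to 0.68 without the same arrays. In the last case the unadjusted limma p was 0.0285. Canagliflozin against restriction ran from -0.39 without restriction replicate 1 to -0.03 without restriction replicate 2.

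**Figure D2:**
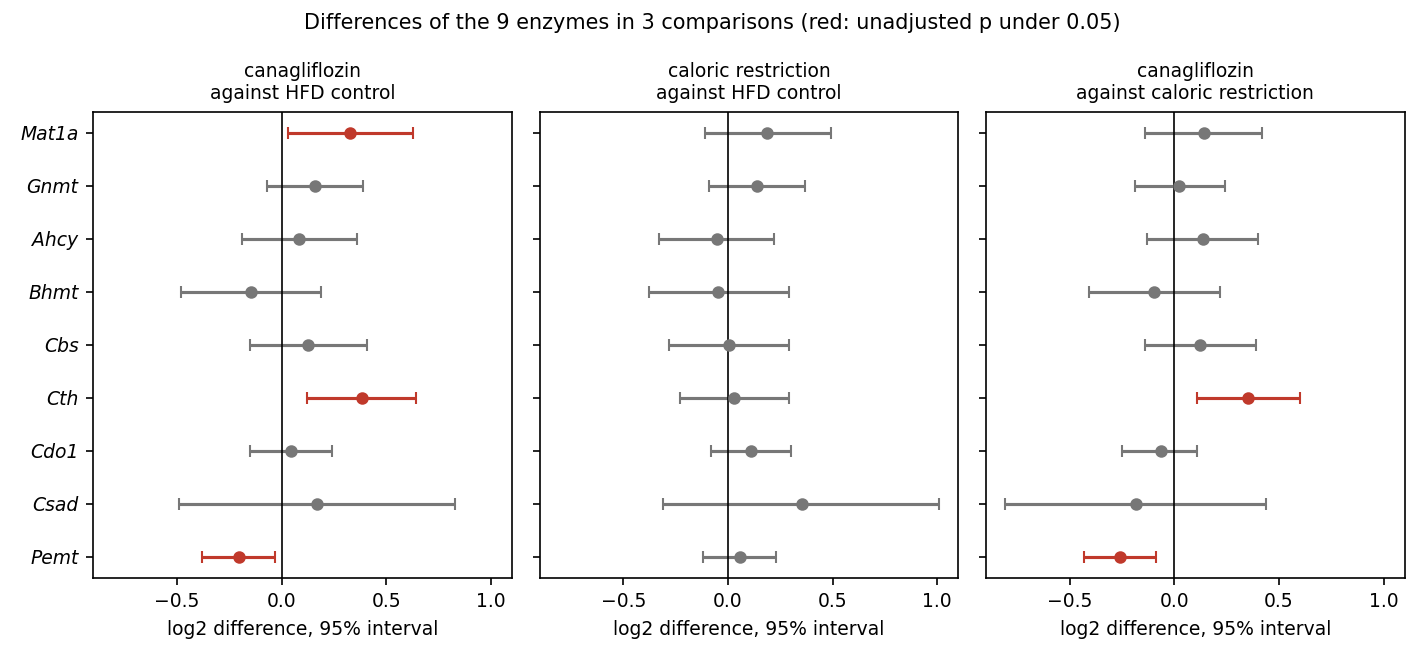
Log2 differences of the 9 enzymes (points) with 95% intervals (bars) from limma, for canagliflozin against HFD control, restriction against HFD control and canagliflozin against restriction; red marks an unadjusted p under 0.05. The intervals of Cth and Pemt exclude 0 for canagliflozin against either group, that of Mat1a for canagliflozin against HFD control, and none for restriction against HFD control.

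As a group the 9 enzymes had higher means in 7 of 9 cases for canagliflozin against HFD controls, against 49.7% of all genes. The count was 7 of 9 for restriction against HFD controls (50.5% of all genes) and 5 of 9 for canagliflozin against restriction (49.0%). Some of these signs turned with an array left out, as listed at the end. The first 2 counts share the HFD controls. The median log2 difference was 0.126, 0.057 and 0.022 in these comparisons, against -0.001, 0.002 and -0.003 over all genes. The largest fold among the enzymes was 1.3 for canagliflozin against HFD controls (Cth), and 2.39% of all genes differed by more in absolute log2 value. It was 1.28 for restriction against HFD controls (Csad), where 1.63% of genes differed by more, and 1.28 for canagliflozin against restriction (Cth), where 2.41% did.

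The enzymes differed widely in how much they varied between arrays of the same group. Csad had a pooled within-group SD of 0.57, at the 99.4th percentile of all genes, and Pemt one of 0.09, at the 2.0th percentile, with a median of 0.18 over all genes. Cdo1 (0.11) and Gnmt (0.16) also lay below that median, Cth was at 0.19, and Ahcy (0.21), Cbs (0.21), Mat1a (0.23) and Bhmt (0.27) lay above it. Group means held 69.9% of the variance of Pemt over the 14 arrays, 52.4% of that of Cth and 28.8% of that of Mat1a. In Bhmt they held 6.03% and in Csad 7.13%, so that nearly all of their variance lay between arrays of 1 group. Group means hold part of the variance even where groups do not differ, and the share over all genes was not computed. Pemt, Cth and Mat1a are the enzymes with an unadjusted p under 0.05 above, so their shares restate those differences.

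Correlations between the enzymes over the 14 arrays ranged from -0.69 to 0.70 with a median of 0.12, and 26 of the 36 pairs were positive. None passed a permutation test adjusted over the 36 pairs (smallest adjusted p = 0.113), by Pearson's r or by Spearman's rho, and 6 had an unadjusted permutation p under 0.05 for r. Mat1a and Cth had r = 0.70 (permutation p = 0.00506, adjusted p = 0.113) and rho = 0.56 (p = 0.038, adjusted p = 0.418). Without the 2 arrays farthest from the Mat1a median r was 0.48, and after removal of the group means it was 0.62. Mat1a and Ahcy, which stand at the start and the end of SAM use, had r = 0.69 (permutation p = 0.00686, adjusted p = 0.113) and rho = 0.75 (p = 0.00319, adjusted p = 0.115). That pair kept r = 0.62 without the 2 farthest arrays and r = 0.74 after removal of the group means.

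Cth and Pemt had the most negative correlation, with r = -0.69 (permutation p = 0.00943, adjusted p = 0.113) and rho = -0.46 (p = 0.101, adjusted p = 0.454). It was -0.28 without the 2 arrays farthest from the Cth median and -0.29 after removal of the group means. Leaving out those arrays, canagliflozin replicates 2 and 4, also narrows the range of Cth. Leaving out single arrays brought 1 pair past the threshold in 2 cases. These were Mat1a and Ahcy without HFD control replicate 2 (r = 0.83, adjusted p = 0.0191) and Mat1a and Cth without restriction replicate 5 (r = 0.85, adjusted p = 0.00756).

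**Figure D3:**
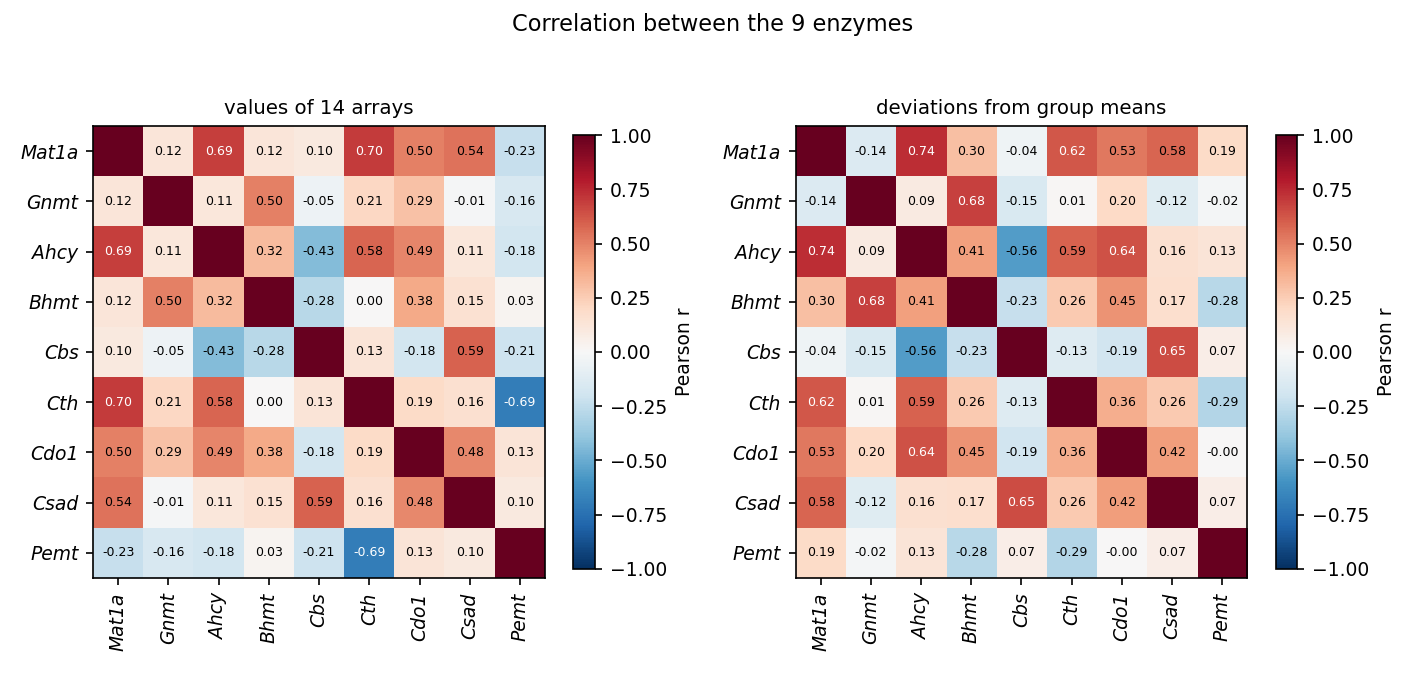
Pearson correlations between the 9 enzymes over 14 arrays, from the log2 values and from their deviations from the group means; colour runs from -1 (blue) to 1 (red). Mat1a with Cth (0.70) and with Ahcy (0.69) are the most positive pairs on the left, and Cth with Pemt is -0.69 there and -0.29 after removal of the group means.

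The genes whose pattern over the 14 arrays was most like each enzyme were taken from the whole table by Pearson's r, which picks the highest of 22179 values and is given as a description. For Mat1a they were Gpt2 (r = 0.90), an alanine aminotransferase, Farp2 (0.89) and Asl (0.89), the urea cycle enzyme argininosuccinate lyase. For Cth they were Slc7a2 (0.90), a transporter of cationic amino acids, Etnppl (0.89), a phospholyase of phosphoethanolamine, and Pros1 (0.89), the anticoagulant protein S. For Pemt they were Zfp46 (0.91), Rnf181 (0.90) and Thrsp (0.90), a lipogenic gene of the liver. After removal of the group means these 9 correlations lay between 0.76 and 0.88. Ahcy was most like Cyp3a13 (0.88), Sparcl1 (0.86) and Sult1a1 (0.85), and Cbs most like Wdr76 (0.88), Hsf5 (0.85) and Mdn1 (0.85). The highest values for Gnmt (Perm1, 0.79), Bhmt (Sh3d21, 0.82), Cdo1 (Rhoj, 0.84) and Csad (Zfp574, 0.87) came from genes with mean log2 values of 2.65, 4.33, 5.13 and 4.29, all below the arrays' upper quartiles.

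Genes around the 9 enzymes were described through 8 lists, of which 82 of 91 genes were measured under 1 symbol; the others are not analysed here. None of the 82 passed the adjusted threshold in any comparison. At an unadjusted p under 0.05, 4 were higher and 4 lower for canagliflozin against HFD controls, 1 was higher and 0 lower for restriction against HFD controls, and 4 were higher and 2 lower for canagliflozin against restriction. These are 9.76%, 1.22% and 7.32% of the 82, against 6.51%, 3.93% and 6.05% of all genes. Their median log2 differences were -0.048, -0.009 and -0.031 in these comparisons, and 30, 39 and 31 of the 82 had higher means. The latter are 36.6%, 47.6% and 37.8%, against 49.7%, 50.5% and 49.0% of all genes. Values did not overlap between the compared groups in 5, 2 and 1 of the 82, against 1.95%, 1.4% and 0.929% of all genes. The shares of all genes given here, 6.51%, 3.93% and 6.05% for an unadjusted p under 0.05, also stand beside the counts of single lists below.

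The other genes of methionine regeneration and SAM synthesis, 6 measured, had a median difference of -0.022 for canagliflozin against HFD controls and 0 with an unadjusted p under 0.05. Bhmt2, whose product methylates homocysteine from S-methylmethionine, averaged 9.78 ± 0.18 under canagliflozin, 9.88 ± 0.21 under restriction and 9.82 ± 0.27 in HFD controls. Ahcyl1, a relative of Ahcy, averaged 9.13 ± 0.06, 9.16 ± 0.07 and 9.28 ± 0.15 in the same groups. Mat2b, the regulatory subunit of methionine adenosyltransferase 2, averaged 6.52 ± 0.13, 6.57 ± 0.11 and 6.52 ± 0.22. All 3 overlap between groups.

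The folate cycle, which supplies methyl groups for methionine synthesis, had 15 measured genes, 5 with higher means under canagliflozin than in HFD controls, and 0 with an unadjusted p under 0.05. Those 5 are 33.3% of the folate cycle, against 49.7% of all genes with higher means. Aldh1l1, Ftcd and Shmt2, its brightest members, differed by -0.11 ± 0.11, -0.07 ± 0.11 and 0.02 ± 0.11. Restriction exceeded HFD controls by 0.22 ± 0.11 in Shmt2, the mitochondrial serine hydroxymethyltransferase (adjusted p = 0.999). Choline, betaine and sarcosine genes, 10 measured, likewise had 0 with an unadjusted p under 0.05 in any comparison. Sardh, which oxidises the sarcosine made by Gnmt, differed by -0.05 ± 0.13, Pipox by -0.14 ± 0.16 and Aldh7a1 by -0.01 ± 0.10 for canagliflozin against HFD controls, and the last has the opposite sign after median centring or cyclic loess (0.008 and 0.002).

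Among 8 other SAM-dependent methyltransferases, the enzymes that compete with Gnmt and Pemt for SAM, Nnmt had the largest difference. Nnmt methylates nicotinamide, and it measured 7.74, 8.39, 7.24, 8.09 and 8.10 under canagliflozin, 7.10, 7.16, 7.13, 7.56 and 7.61 under restriction, and 7.40, 7.14, 7.15 and 7.30 in HFD controls. Canagliflozin replicate 3 lies among the controls and the other 4 lie above all of them. The difference was 0.66 ± 0.18 (0.28 to 1.04; 1.58-fold, adjusted p = 0.559) against HFD controls and 0.60 ± 0.17 (adjusted p = 0.683) against restriction.

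Gamt, which makes creatine, averaged 10.09 ± 0.12 under canagliflozin against 10.42 ± 0.09 under restriction, with all 5 drug values below all 5 restricted ones. That difference was -0.32 ± 0.09 (adjusted p = 0.683), and HFD controls lay between at 10.26 ± 0.18. Tpmt, thiopurine methyltransferase, averaged 8.89 ± 0.20 under canagliflozin and 8.98 ± 0.15 under restriction, against 9.18 ± 0.06 in HFD controls. All 10 treated livers lay below all 4 controls in Tpmt, although restriction replicate 1 and HFD control replicate 3 both round to 9.12, with differences of -0.30 ± 0.11 (adjusted p = 0.669) and -0.20 ± 0.11 (adjusted p = 0.999). Inmt, which methylates indoleamines, averaged 10.36 ± 0.39 under canagliflozin against 10.73 ± 0.27 in HFD controls, and canagliflozin replicate 3 was the highest of the 9 arrays at 11.03.

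Polyamine and methionine salvage genes, 10 measured, had a median of -0.027 for canagliflozin against HFD controls. Adi1, an enzyme of methionine salvage, averaged 8.22 ± 0.05 under canagliflozin, 8.43 ± 0.11 under restriction and 8.39 ± 0.07 in HFD controls, and the difference from restriction was -0.21 ± 0.08 (adjusted p = 0.785). Srm, spermidine synthase, differed from HFD controls by -0.11 ± 0.11 under canagliflozin, and Azin1, which inhibits antizyme, by 0.03 ± 0.12.

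Cysteine breakdown, taurine and sulfide genes, 11 measured, had 1 higher and 1 lower at an unadjusted p under 0.05 for canagliflozin against HFD controls. The higher was Got1, the cytosolic aspartate aminotransferase, which also acts on cysteine sulfinate. It measured 11.70, 12.15, 11.19, 12.50 and 12.04 under canagliflozin, 11.33, 10.94, 11.13, 11.90 and 11.97 under restriction, and 11.02, 10.97, 11.02 and 11.09 in HFD controls. All 5 drug values lie above the controls, with a difference of 0.89 ± 0.23 (0.41 to 1.38; 1.86-fold, adjusted p = 0.559), and 4 of 5 restricted values do too (0.43 ± 0.23, adjusted p = 0.999). Baat, which conjugates bile acids to taurine, differed by -0.04 ± 0.13 and Fmo1 by 0.01 ± 0.15 between canagliflozin and HFD controls, both with changing sign between settings.

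Glutathione genes draw on the cysteine that Cth makes. Of 13 measured, 2 (15.4%) had higher and 11 lower means under canagliflozin than in HFD controls, against 49.7% higher among all genes. Their median was -0.065, with 0 at an unadjusted p under 0.05 and no value beyond -0.28. The genes share the same arrays, so their signs are not independent. Gclm, the modifier subunit of glutamate-cysteine ligase, averaged 9.55 ± 0.07 under canagliflozin, 9.68 ± 0.09 under restriction and 9.61 ± 0.06 in HFD controls. Anpep and Lap3, aminopeptidases, differed by -0.06 ± 0.11 and -0.11 ± 0.13 for canagliflozin against HFD controls.

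Among 9 regulators, Ppargc1a, a transcriptional coactivator of fasting metabolism, measured 7.13, 7.52, 6.66, 8.52 and 8.01 under canagliflozin, 6.56, 6.74, 6.08, 7.26 and 6.89 under restriction, and 6.08, 6.60, 6.51 and 6.53 in HFD controls. All 5 drug values exceed the controls, and the difference was 1.14 ± 0.29 (0.53 to 1.75; 2.2-fold, adjusted p = 0.559). Cebpa, a factor of hepatocyte identity, averaged 9.28 ± 0.26 under canagliflozin, 9.47 ± 0.28 under restriction and 9.66 ± 0.04 in HFD controls, with all 5 drug values below the controls (-0.38 ± 0.14, adjusted p = 0.673). Hnf4a and Ppara, nuclear receptors of hepatocytes, differed from HFD controls by 0.05 ± 0.11 and -0.06 ± 0.13 under canagliflozin.

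**Figure D4:**
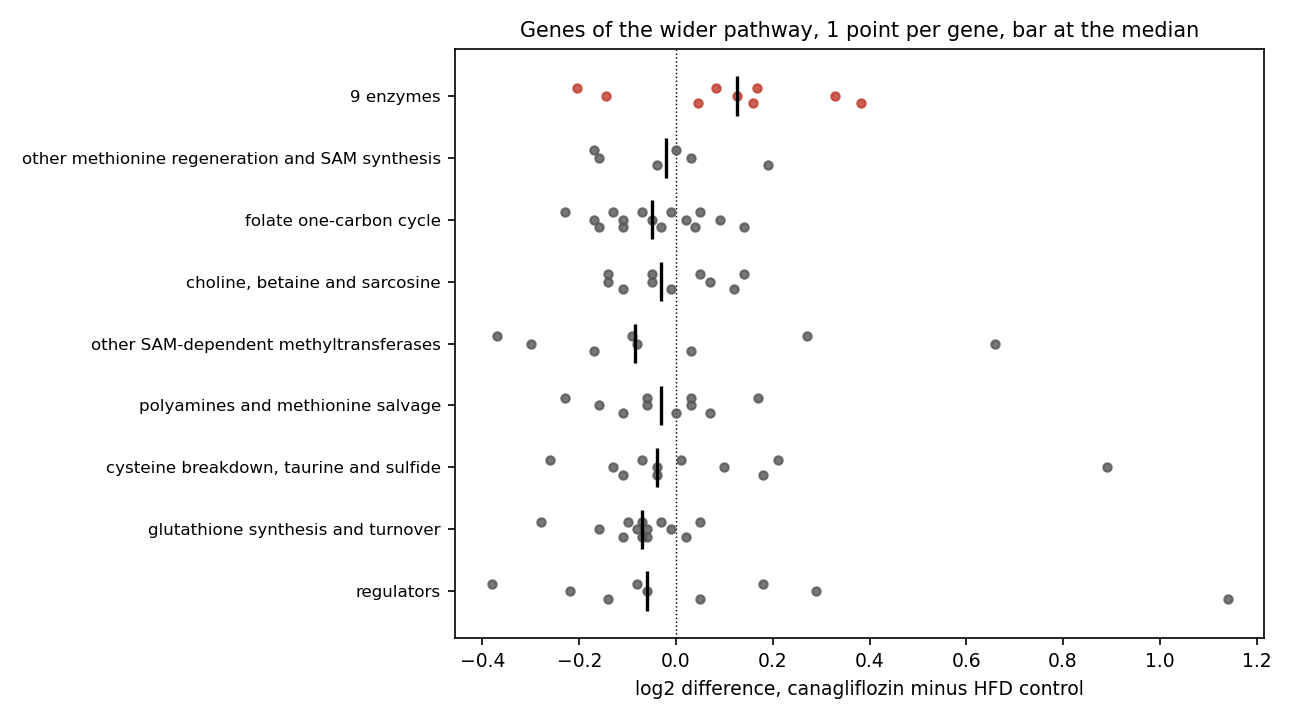
Log2 differences between canagliflozin and HFD control livers for the 9 enzymes (top, red) and the genes of 8 related lists (grey); each point is 1 gene and each bar the list's median. The 9 enzymes have a median of 0.126 and the glutathione genes one of -0.065, and the points farthest to the right are Ppargc1a (1.14), Got1 (0.89) and Nnmt (0.66).

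Markers of other liver cells were compared because the arrays measure whole tissue. The mean of 10 macrophage markers ran from 6.80 to 7.32 under canagliflozin, from 6.33 to 7.19 under restriction and from 6.49 to 7.35 in HFD controls. Endothelial markers, 10 measured, ran from 7.23 to 7.60, from 7.28 to 7.69 and from 7.27 to 7.59 in the same groups, and the 10 stellate cell markers from 6.71 to 6.99, from 6.54 to 6.84 and from 6.66 to 6.92. Periportal hepatocyte markers, 8 measured, ran from 10.85 to 11.08 under canagliflozin, from 10.77 to 10.95 under restriction and from 10.79 to 10.88 in HFD controls, and the 10 pericentral ones from 9.40 to 9.49, from 9.40 to 9.52 and from 9.34 to 9.54. The lists for cholangiocytes (6 measured), lymphocytes (8), adipocytes (5) and pancreatic acinar cells (5) had means between 3.82 and 4.37 on every array, near the array medians. Every list overlapped between the groups, and no marker of the 10 lists passed the adjusted threshold in any comparison. Their part in the values of the enzymes was not tested.

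Promoter windows of the members were read from RefSeq where given, which was the case for 6 of the 9 genes (8 windows). These counts include Pemt and its windows shown above. Mat1a, Cth and Cdo1 had no window. The Bhmt window held AGGTCA, a nuclear receptor motif found in 16.3% of all windows, 3 times, with first bases 234, 72 and 47 bases before the start. AGGTCA also occurred in the Ahcy and Gnmt windows, so 3 of the 8 windows held it. GGGCGG, the GC box, occurred in 3 of 8 (35.7% of all windows), TGACG in 1 of 8 (20.8%) and CACGTG in 1 of 8 (7.15%). TGTTTAC, TGATGNAA and TATAAA occurred in 0 of 8, against 3.65%, 3.97% and 13.6% of all windows.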

How the data were processed

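Per the labels, total RNA of 14 livers was hybridised, with 1 array for each sample. The values are log2, 1 per probe set, as the authors deposited them; the submitters' processing notes name RMA and Affymetrix Expression Console. Their versions and the genome build were not given in the sources used here. RMA equalises the arrays' distributions, so a difference in total RNA between groups would not be seen. Precision is limited by the number of arrays, which carry no sequencing depth.

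Of 41345 probe sets, 23521 were annotated with 1 symbol, 1814 with several, and 16010 were not listed. The brightest probe set per gene gave 22180 genes, of which 21994 matched the RefSeq gene table and 0 had another symbol there. Groups and replicate numbers come from the labels, which do not state array by array that each is a separate mouse; p-values measure the spread between these samples. The canagliflozin dose is 30 mg/kg in the sample labels and 25 to 30 mg/kg in the protocol.

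The log2 values were modelled by group over all 14 arrays (lmFit and eBayes of limma 3.58.1, R 4.3.3), with Benjamini-Hochberg adjustment over all genes and a threshold of 0.05; group errors are SD and errors of differences SE. The fit was checked on simulated data. Exact permutation tests reassigned the arrays of the compared groups, for 27 differences of the 9 enzymes. They were also run for the 3 brightest genes of each related list, Nnmt and Ppargc1a, whose exact p-values are not printed. Correlations between enzymes used 100000 permutations. The 9 enzymes, the related lists and the marker lists were chosen with earlier results of these data known. Named genes are the 9 enzymes, the 3 brightest of each related list, Nnmt and Ppargc1a, and the 3 nearest genes of each enzyme. A few further genes, Slc6a6 among them, are named because they alone passed a threshold in a direction or setting, chosen after their values were seen. Promoter sequences are RefSeq's (GRCm38.p6). The main fit did not pair arrays by replicate number. Same-numbered arrays correlated between -0.089 and 0.198 in their deviations from group means. Differently numbered arrays were not compared in this way, so whether shared numbers mark a pairing is not settled. Other settings were the 2 compared groups alone, a minimum mean log2 value of 5, median centring, cyclic loess, array weights, a trended and robust variance, the replicate block, averaging the probe sets of a gene, testing all probe sets, the deposited order as a covariate, and leaving out each array.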

Additional observations from a re-analysis of the deposited data

Results flagged for a closer look

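A sample far from the others of its group was looked for in 105 groups of 4 or 5 arrays by Dixon's criterion, and 2 met it, where chance gives about 1 in 20. Bhmt in canagliflozin replicate 2 measured 5.71, against 5.16 to 5.30 in the other 4 arrays. This is the only such value among the 27 groups of the 9 enzymes, and Bhmt was dim on all arrays. Bhmt2 in HFD control replicate 1 measured 9.42, against 9.93 to 9.98 in the other 3.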

How the results depend on the processing

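The count of the 9 enzymes past the adjusted threshold was 0 in every comparison under every setting run, leaving out single arrays included. Their signs held in 268 of 270 values under other settings and in 234 of 252 with an array left out. Many of the 270 could not turn. The compared groups alone, the minimum mean, the trended and robust variance and testing all probe sets leave the log2 differences unchanged. The replicate block leaves canagliflozin against restriction unchanged, and averaging probe sets changes only Ahcy among the 9. The 268 is therefore a weak measure of stability.

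For all genes, canagliflozin against HFD controls gave 0 calls, but 1 with a minimum mean log2 of 5 (Carmil1), 1 with the deposited order as a covariate (Olfr331), and 0 to 12 with an array left out, 12 of them without canagliflozin replicate 3 and 1 without canagliflozin replicate 5. Restriction against HFD controls gave 0, 1 with the deposited order (Olfr331) and 0 to 0 with an array left out. Canagliflozin against restriction gave 1 (Rtkn), 0 with only the compared groups, 0 with all probe sets, and 0 to 16 with an array left out, 16 without canagliflozin replicate 3 and 2 without canagliflozin replicate 2. The cause was not tested. Pairs of enzymes past the threshold numbered 0, and 0 to 1 with an array left out.

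With the replicate block, canagliflozin against restriction gave 2 calls (Angptl8 and Ppp1r3c) and not the call of Rtkn; the counts of the other comparisons stayed at 0. Cth was then 0.418 above HFD controls (adjusted p = 0.599) and Pemt -0.261 against restriction (adjusted p = 0.596).

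Under other settings a few signs turned, all with values near 0. For canagliflozin against HFD controls these were Mat2b (0.018 with median centring, 0.008 with cyclic loess, 0.004 with array weights), Aldh7a1 (0.008, 0.002, and 0.008 with the block), Fmo1 (-0.006 with weights, -0.028 with the block) and Baat (0.024 with the block). For restriction against HFD controls they were Ftcd (0.014 with the block) and, with the mean of probe sets, Ahcy (0.007) and Sardh (-0.05). For canagliflozin against restriction they were Ppara (0.007 with median centring, 0.003 with loess, 0.002 with the deposited order) and, with the deposited order, Gnmt (-0.011) and Anpep (0.007).

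With an array left out, further signs turned, here with the lowest and highest value. In canagliflozin against HFD controls these were Cdo1 (-0.028 to 0.081), Csad (-0.055 to 0.499), Mat2b (-0.072 to 0.08), Bhmt2 (-0.176 to 0.015), Shmt2 (-0.056 to 0.11), Aldh7a1 (-0.071 to 0.033), Sardh (-0.139 to 0.028), Azin1 (-0.064 to 0.114), Baat (-0.086 to 0.056), Fmo1 (-0.088 to 0.129), Anpep (-0.143 to 0.023) and Hnf4a (-0.029 to 0.083). In restriction against HFD controls these were Ahcy (-0.123 to 0.042), Bhmt (-0.166 to 0.057), Cbs (-0.089 to 0.15), Cth (-0.027 to 0.062), Mat2b (-0.02 to 0.132), Bhmt2 (-0.07 to 0.147), Ftcd (-0.055 to 0.031), Sardh (-0.05 to 0.118), Nnmt (-0.01 to 0.116), Inmt (-0.186 to 0.029), Srm (-0.07 to 0.085), Baat (-0.001 to 0.139), Anpep (-0.112 to 0.054) and Ppara (-0.12 to 0.037). In canagliflozin against restriction these were Gnmt (-0.037 to 0.062), Bhmt (-0.201 to 0.022), Mat2b (-0.099 to 0.003), Aldh7a1 (-0.021 to 0.082), Fmo1 (-0.193 to 0.009), Lap3 (-0.099 to 0.097) and Ppara (-0.102 to 0.056).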
